A study of Rattus norvegicus with 15 samples.

Results

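The unfolded protein response and its endoplasmic reticulum (ER) folding machinery were described here as a module of 37 genes. The members were taken by gene symbol from the deposited count table, which lists 28914 genes, and all 37 symbols were found in it. They comprise the stress sensors, the transcription factors these act through, ER chaperones, disulfide enzymes, degradation and translocation factors, outputs of the ATF4 branch and the ER membrane protein Wfs1.

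Proteins bound for secretion fold in the ER, and 3 kinds of membrane sensor report on how well this goes. ATF6 is cut in the Golgi and its freed part induces chaperones; IRE1 (gene Ern1) splices the messenger RNA of Xbp1; PERK (gene Eif2ak3) phosphorylates eIF2-alpha, which slows translation and favours production of ATF4. Beta cells make large amounts of proinsulin and depend on this machinery, and acinar cells, which secrete digestive enzymes, are also rich in ER. In the messenger RNA counts neither Xbp1 splicing, nor ATF6 cutting, nor phosphorylation was measured.

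Polyadenylated RNA in 15 libraries came from islets of Lewis rats. It was taken 10 weeks after removal of 90% of the pancreas (Px, n = 10) or a sham operation (Sham, n = 5). The labels describe the rats as 4-5 weeks old without saying at which time, and name no treatment other than surgery. Every title also carries the mark Inc_YES, whose meaning is not given. Each label also gives an average blood glucose, without a unit, of 88 to 96 in Sham libraries. Among Px libraries it was 104 to 211 in 7 (lower-glucose Px) and 416 to 464 in 3 (higher-glucose Px). The boundary was set at 300. The stated purpose is to learn how hyperglycemia affects islet cells. Nothing in the labels says whether a library came from 1 rat or a pool, so p-values measure the spread between these libraries.

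Total counts were 12205650 to 18428397 per Sham library and 19108091 to 33423286 per Px library, and libraries are called by the numbers on their labels. Acinar genes differed between the groups before any ER gene was considered. The 22 acinar markers took 0.902% to 12.6% of the counts in Sham and 18.8% to 42.3% in Px, and none of the 22 was at 0 throughout a group. The defining acinar genes Prss1 and Cpa1 ran from 1293 to 25290 and from 260 to 4829 CPM (counts scaled to a common library size) in Sham, against 30330 to 177900 and 6236 to 29650 CPM in Px. Islet hormone genes were present in every library, with Ins1 at 55250 to 134800 CPM in Sham and 21830 to 54060 CPM in Px. The summed CPM of 13 macrophage markers was 28.7 to 60.5 in Sham and 428 to 1229 in Px, and that of 11 fibroblast markers was 328 to 683 and 1911 to 8459. Plasma cell markers (7 genes) summed to 8.62 to 11.8 and 35.4 to 77.3 CPM, and duct markers (7 genes) to 107 to 177 and 209 to 417 CPM. Beta cell markers (9 genes) summed to 87870 to 190600 CPM in Sham and 38600 to 80030 CPM in Px. None of these sums overlapped between the groups, so cell makeup and surgery cannot be told apart. Sums of 6 alpha, delta and PP cell markers did overlap, at 7048 to 11030 CPM in Sham and 5241 to 15040 CPM in Px. So did those of 8 endothelial markers, at 396 to 590 and 579 to 894 CPM. The hormone gene Gcg also overlapped, at 5737 to 8786 CPM in Sham and 3604 to 12210 CPM in Px. In such bulk samples, fewer cells of a type and less RNA per cell cannot be told apart either.

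Promoter sequences are shown first because the 3 arms are commonly told apart by the DNA elements they use. The ER stress response element (ERSE) is CCAAT, 9 bases of any kind and CCACG, and it is bound by ATF6 with NF-Y. It was found on either strand within 250 bases before the start in 9 of the 30 members present in the RefSeq promoter table (GRCr8), and in 22 of 33469 promoters in that table (0.0657%). The promoter of Hspa5, which encodes the chief ER chaperone BiP, is given whole, with both parts of the ERSE in capitals.
Hspa5, chr3:38452766-38453015, plus strand: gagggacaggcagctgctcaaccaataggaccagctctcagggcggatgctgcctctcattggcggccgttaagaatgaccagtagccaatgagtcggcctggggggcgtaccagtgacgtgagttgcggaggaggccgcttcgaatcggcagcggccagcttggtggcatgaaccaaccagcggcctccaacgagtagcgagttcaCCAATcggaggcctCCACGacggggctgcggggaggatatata
These 250 bases hold CCAAT 4 times and CCACG 1 time, counting both strands. Windows of up to 20 bases on each side of the element are given for some of the members that hold one. Its parts are in capitals, and reversed where the element lies on the other strand. Calr, Dnajc3 and Derl3 also hold an ERSE and Hsp90b1 holds another, and those windows are not printed. ERSE-II is ATTGG, 1 base of any kind and CCACG, and was found in 14 promoters (0.0418%), including those of Herpud1 and Hyou1 (the latter not printed).
Xbp1, ERSE, chr14:84604538-84604596, plus strand: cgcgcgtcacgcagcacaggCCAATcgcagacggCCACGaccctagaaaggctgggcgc
Hsp90b1, ERSE, chr7:23012431-23012489, minus strand: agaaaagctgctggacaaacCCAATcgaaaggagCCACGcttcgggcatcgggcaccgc
Creld2, ERSE, chr7:121789219-121789277, plus strand: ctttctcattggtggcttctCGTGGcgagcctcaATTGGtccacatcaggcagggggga
Canx, ERSE, chr10:35158049-35158107, minus strand: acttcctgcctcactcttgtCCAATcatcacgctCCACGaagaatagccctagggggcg
Ero1b, ERSE, chr17:92941438-92941496, plus strand: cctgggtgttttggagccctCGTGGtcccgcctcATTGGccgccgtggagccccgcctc
Herpud1, ERSE-II, chr19:10614801-10614851, minus strand: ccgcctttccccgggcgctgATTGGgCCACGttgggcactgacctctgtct
The ATF4 element TGATGNAA, used by the PERK arm, was found in 1139 promoters (3.4%) and in 3 members, Chac1, Herpud1 and Trib3. The capitals mark its bases other than N, again on the other strand.
Chac1, ATF4 element, chr3:126795944-126795991, plus strand: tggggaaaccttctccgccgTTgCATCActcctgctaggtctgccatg
Trib3, ATF4 element, chr3:161275534-161275574, minus strand: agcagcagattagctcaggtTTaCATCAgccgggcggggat
A match describes letters in this window and shows no binding. The matches did not sort the members by arm. An ERSE was also found in Xbp1 and Dnajc3, placed below in the IRE1-XBP1 arm, and in Canx and Ero1b, placed in no single arm. The element UPRE (TGACGTGG) was found in 174 promoters (0.52%) and in 1 member, Hyou1. Of the 10 tested members with an ERSE or ERSE-II, 2 were called higher in Px than in Sham, 3 lower and 5 neither, with a median log2 fold change of -0.10. Over all genes tested 34.5% were called higher and 30.2% lower, so the share of lower calls was near that background.

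Across 36 members tested, 7 were called higher and 11 lower in Px than in Sham by edgeR's quasi-likelihood test with Benjamini-Hochberg adjustment at 0.05. This is 19.4% and 30.6% of them, while over all 15199 genes tested 34.5% were called higher and 30.2% lower. The median log2 fold change was -0.11 among the members and 0.02 among all genes. Derl3, with 1 to 12 counts per library, was too low to test. Levels below are CPM on TMM-scaled library sizes. In the plot of fold changes by arm the sensors other than Eif2ak3 lie left of 0, and the outputs of each arm lie on both sides.

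**Figure D1:**
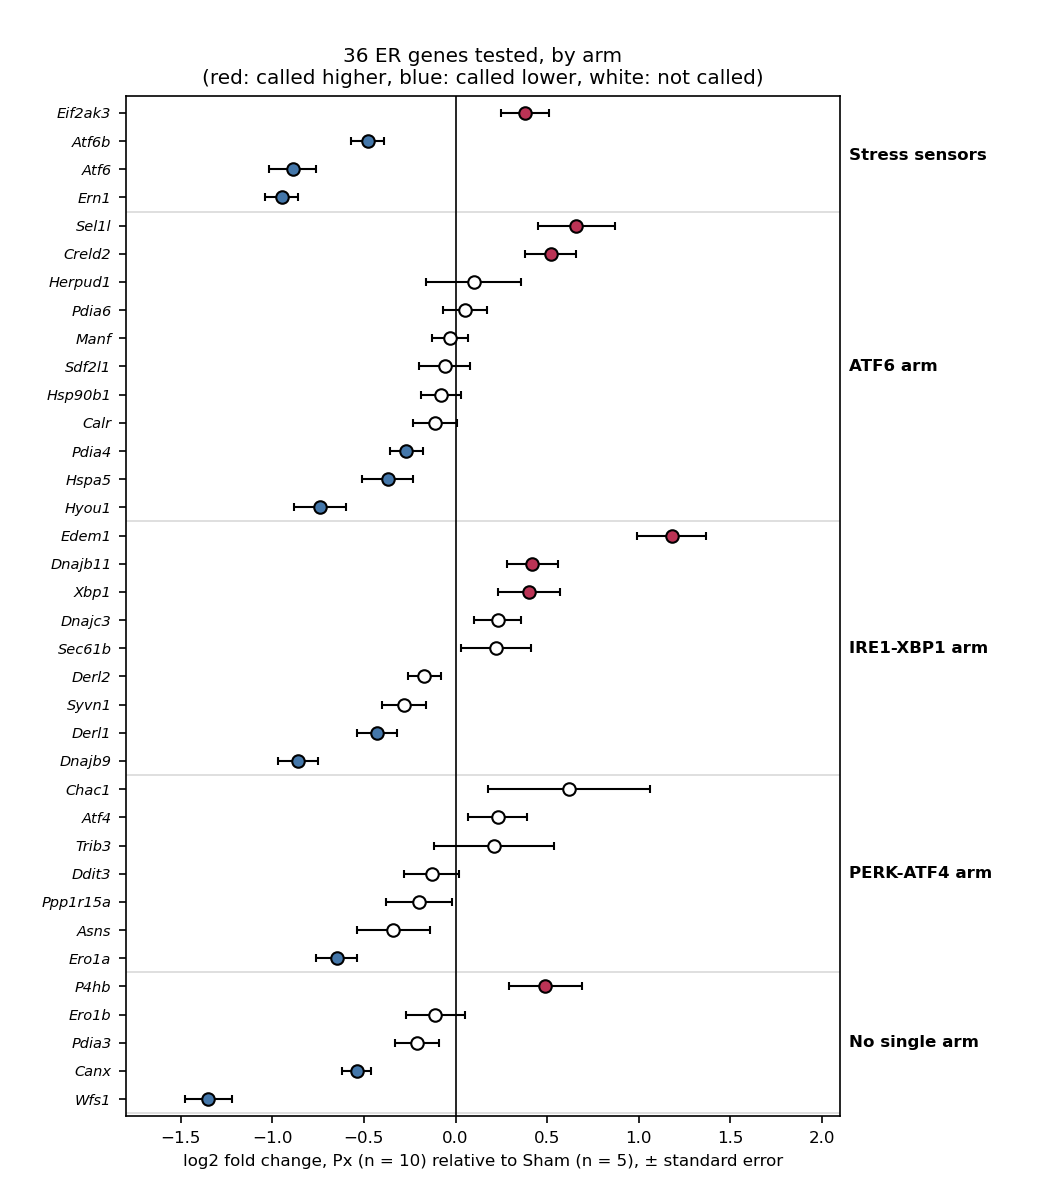
Log2 fold change of each tested ER gene in Px (n = 10) relative to Sham (n = 5), with its standard error, grouped by arm. Red and blue points passed the threshold; they are the 7 higher and 11 lower genes, from Edem1 at 1.18 to Wfs1 at -1.35.

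Sensors stood lower in Px, with 1 exception. Ern1, the IRE1 sensor, measured 170.7, 178.9, 204.9, 186.2 and 222.4 CPM in the 5 Sham libraries. In Px its lowest, median and highest levels were 82.4, 103.5 and 114.3 CPM. The groups did not overlap, and the log2 fold change was -0.95 ± 0.09 (standard error; edgeR adjusted p = 2.67e-07).

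Atf6, the ATF6 sensor, measured 104.6, 100.7, 155.8, 135.6 and 177.0 CPM in Sham and 56.6, 74.5 and 89.0 CPM (lowest, median, highest) in Px. Its groups did not overlap either. The log2 fold change was -0.89 ± 0.13 (edgeR adjusted p = 1.51e-05). Its relative Atf6b fell less, by 0.48 on the log2 scale (edgeR adjusted p = 0.000196), from 129.8 ± 21.1 CPM (SD, n = 5) to 92.9 ± 7.5 CPM (n = 10).

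Eif2ak3, the PERK sensor, was the sensor called higher. It measured 74.8, 79.2, 92.4, 71.2 and 73.1 CPM in Sham and 70.8, 103.8 and 131.9 CPM (lowest, median, highest) in Px. The lowest Px library lay under the lowest Sham library, so the groups overlapped. The log2 fold change was 0.38 ± 0.13 (edgeR adjusted p = 0.0153). With library totals in place of TMM it was -0.30, and after adding the acinar score to the model -0.18.

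Of the transcription factors downstream of the sensors, Xbp1 was called and Atf4 and Ddit3 were not. Xbp1, the target of IRE1 splicing, measured 145.1, 144.0, 195.9, 162.3 and 192.8 CPM in Sham and 146.1, 213.8 and 348.4 CPM (lowest, median, highest) in Px. The highest value came from the lower-glucose Px library 16. Its log2 fold change of 0.40 ± 0.17 was near the threshold (edgeR adjusted p = 0.048) and was lost without any 1 of 9 libraries (Sham 23, 24 and 26, lower-glucose Px 11, 14 and 16, and each higher-glucose Px). Atf4, the effector of the PERK arm, was at 203.2 ± 23.5 CPM in Sham and 237.0 ± 58.5 CPM in Px, with a log2 fold change of 0.23 ± 0.16 (edgeR adjusted p = 0.224). Ddit3, which encodes CHOP, stayed near the low end of the module, at 4.89 to 7.29 CPM in Sham and 4.32 to 7.47 CPM in Px.

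Chaperones split. Dnajb9, a BiP cofactor induced through XBP1, measured 204.1, 185.7, 219.4, 182.8 and 237.3 CPM in Sham and 79.6, 114.6 and 133.5 CPM (lowest, median, highest) in Px. The groups did not overlap, and the log2 fold change was -0.86 ± 0.11 (edgeR adjusted p = 4.26e-06). Hyou1, an exchange factor for BiP, fell from 1185 ± 238 CPM to 706 ± 110 CPM, by 0.74 on the log2 scale (edgeR adjusted p = 0.000176). Canx, the membrane lectin chaperone calnexin, fell from 706 ± 76.7 CPM to 486 ± 29.3 CPM, by 0.54 (edgeR adjusted p = 3.19e-05). In both, every Px library was below every Sham library.

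Hspa5, whose promoter is printed above, was the most abundant member per kilobase of exon in Sham, at 766 ± 171 CPM per kb (SD, n = 5). It measured 1557, 1451, 2306, 2086 and 2416 CPM in Sham and 1209, 1561 and 1720 CPM (lowest, median, highest) in Px. The other 6 Px libraries overlapped the Sham range, and 4 were under it. The fall of 0.37 ± 0.14 on the log2 scale (edgeR adjusted p = 0.0321) was no longer called without any 1 of 7 libraries (Sham 25, 26 and 27, lower-glucose Px 2, 8 and 10, and higher-glucose Px 15). Creld2 and Dnajb11 were the chaperones called higher, with log2 fold changes of 0.52 ± 0.14 and 0.42 ± 0.14 (edgeR adjusted p = 0.00316 and 0.0147), and Dnajb11 lost its call without Sham 23 (edgeR adjusted p = 0.0532). Sdf2l1, Dnajc3, Manf, Calr and Hsp90b1 were not called, with values from -0.11 to 0.23. Calr, the soluble lectin chaperone calreticulin, ran from 659 to 1121 CPM in Sham and from 708 to 900 CPM in Px.

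**Figure D2:**
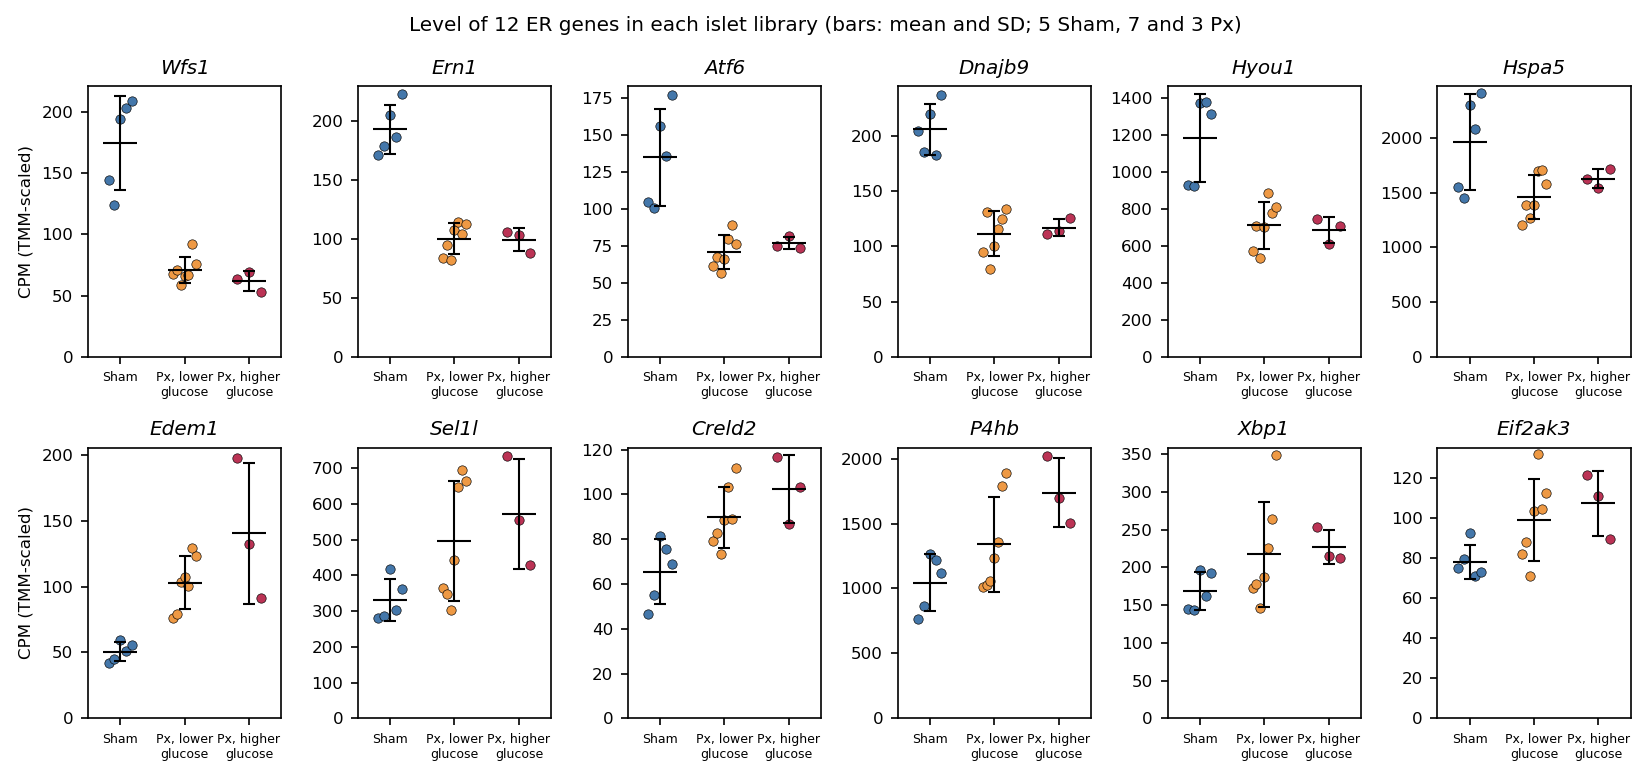
Level of 12 ER genes in each library, in CPM on TMM-scaled library sizes, with group mean and SD (5 Sham, 7 lower-glucose Px, 3 higher-glucose Px). Wfs1, Ern1, Atf6, Dnajb9 and Hyou1 are lower in every Px library than in any Sham library, and Edem1 is higher in every one.

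Disulfide enzymes also went both ways. P4hb, a protein disulfide isomerase, measured 764, 865, 1262, 1222 and 1116 CPM in Sham and 1010, 1431 and 2023 CPM (lowest, median, highest) in Px. Its log2 fold change of 0.49 ± 0.20 (edgeR adjusted p = 0.0385) was not called without any 1 of 8 libraries (Sham 23, 24 and 27, lower-glucose Px 14 and 16, and each higher-glucose Px). Ero1a, an ER oxidase, fell from 89.4 ± 14.2 CPM to 57.0 ± 9.0 CPM, by 0.65 on the log2 scale (edgeR adjusted p = 0.000115), without overlap. Pdia4 fell by 0.27 (edgeR adjusted p = 0.0204), a call lost without Sham 25 or Sham 27. Pdia3, Pdia6 and the islet-rich oxidase Ero1b were not called, with log2 fold changes of -0.21, 0.05 and -0.11.

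Degradation factors held the module's largest rise. Edem1, which directs misfolded glycoproteins to degradation, measured 41.7, 44.8, 59.2, 50.9 and 55.7 CPM in Sham and 76.1, 105.4 and 197.7 CPM (lowest, median, highest) in Px. Every Px library exceeded every Sham library, and the log2 fold change was 1.18 ± 0.19 (edgeR adjusted p = 4.92e-05). Sel1l, the scaffold of the HRD1 ubiquitin ligase, measured 279, 288, 419, 304 and 361 CPM in Sham and 303, 499 and 735 CPM (lowest, median, highest) in Px, with overlap. Its log2 fold change was 0.66 ± 0.21 (edgeR adjusted p = 0.0118). Derl1, a channel protein of the same pathway, fell by 0.43 (edgeR adjusted p = 0.00185). Syvn1, the HRD1 ligase itself, missed the threshold at -0.28 ± 0.12 (edgeR adjusted p = 0.0501), and Herpud1, Derl2 and the translocon subunit Sec61b were not called.

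Wfs1, an ER membrane protein whose loss causes Wolfram syndrome with diabetes, had the largest fall. It measured 144.2, 124.2, 194.0, 203.1 and 209.4 CPM in Sham and 53.2, 67.4 and 92.3 CPM (lowest, median, highest) in Px. The log2 fold change was -1.35 ± 0.13 (edgeR adjusted p = 2.15e-07), a level 0.393 times that of Sham. In all, 8 members lay lower in every Px library than in any Sham library and 1 lay higher, Edem1. Over all genes tested the same held for 16.7% and 20.7%.

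The 4 members listed as PERK outputs, Asns, Chac1, Trib3 and Ppp1r15a, were not called in the comparison of Px with Sham. Ero1a, placed in the same arm, was called lower, as given above. Calls among further genes of the ATF4 response are given below. Asns, asparagine synthetase, was at 199.8 ± 21.3 CPM in Sham and 157.9 ± 50.2 CPM in Px (log2 fold change -0.34 ± 0.20, edgeR adjusted p = 0.159). Chac1, which degrades glutathione, was at 6.08 to 10.6 CPM in Sham and 5.07 to 43.0 CPM in Px, where the highest value was that of lower-glucose library 16 and the next was 18.6 CPM. Trib3, a pseudokinase induced by ATF4, and Ppp1r15a, the eIF2-alpha phosphatase subunit GADD34, had log2 fold changes of 0.21 ± 0.33 and -0.20 ± 0.18. After adding the acinar score to the model, Asns was called lower at -1.53 ± 0.33 and Ppp1r15a at -0.94 ± 0.31 (edgeR adjusted p = 0.00199 and 0.026). The score does not overlap between Sham and Px, so this fit extends a slope across a gap and cannot separate the score from surgery.

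Set side by side, the arms differed in count and median as follows. The 4 sensors had 1 higher and 3 lower calls and a median log2 fold change of -0.68. The 11 tested ATF6 targets had 2 higher and 3 lower calls and a median of -0.06. The 9 genes of the IRE1-XBP1 arm had 3 higher and 2 lower calls and a median of 0.22, and the 7 of the PERK-ATF4 arm had 0 higher and 1 lower call (Ero1a) and a median of -0.13. The background over all genes was 34.5% higher and 30.2% lower. With library totals the ATF6, IRE1-XBP1 and PERK-ATF4 arms had 0, 1 and 0 higher and 9, 6 and 5 lower calls, with medians of -0.67, -0.48 and -0.73 against -0.62 over all genes. With endocrine scaling they had 6, 5 and 2 higher and 0, 1 and 0 lower calls, with medians of 0.42, 0.65 and 0.34 against 0.46. Over all 15199 genes, 2667 were higher and 7950 lower with library totals, and 7436 and 998 with endocrine scaling. The counts of each of these 3 arms thus moved with the scaling, as did those of all genes. Arm targets overlap in biology, and each gene was placed in 1 arm from general knowledge. Within the IRE1-XBP1 arm Edem1 rose and Dnajb9 fell, so its median hides opposite calls. After adding the acinar score to the model, medians of the ATF6, IRE1-XBP1 and PERK-ATF4 arms were -0.39, -0.49 and -0.98, against 0.03 over all genes. No test compared the arms with each other.

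How the libraries are scaled sets the direction of many members. The median of all genes was 0.02 with TMM, -0.62 with library totals and 0.46 with endocrine granule genes as the scale. The falls of Wfs1, Ern1, Atf6 and Dnajb9 and the rise of Edem1 were called under each of these and under DESeq2's size factors. The other 6 rises and 7 falls lost their call under at least 1 scaling. With library totals these 6 rises had negative values, and with endocrine scaling Hspa5, Pdia4 and Derl1 had positive ones. When the acinar score was added to the model, 10 of 11 falls kept their call and 0 of 7 rises did. The acinar score was 6.67 to 10.6 in Sham and 11.2 to 13.1 in Px, without overlap. This fit thus extends a slope across a gap and cannot separate the score from surgery. The same fit called 5 further members lower: Asns, Ppp1r15a, Herpud1 (-1.52 ± 0.37), Syvn1 (-0.72 ± 0.23) and Atf4 (-0.68 ± 0.23). Of all 15199 genes, 3285 were higher and 2702 lower in it. For Wfs1 that value was -1.66 ± 0.26 and for Edem1 0.25 ± 0.31 (edgeR adjusted p = 0.000214 and 0.55, over alternatives that ran up to 0.334 and 0.765). A fit that included the macrophage score called 0 of 36 members and 0 of 15199 genes in either direction. That score was 0.851 to 1.83 in Sham and 4.78 to 6.23 in Px, so it nearly repeats the split of the groups. Standard errors grew in this fit (0.61 for Wfs1 against 0.13 without the score), so it cannot separate surgery from the score.

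**Figure D3:**
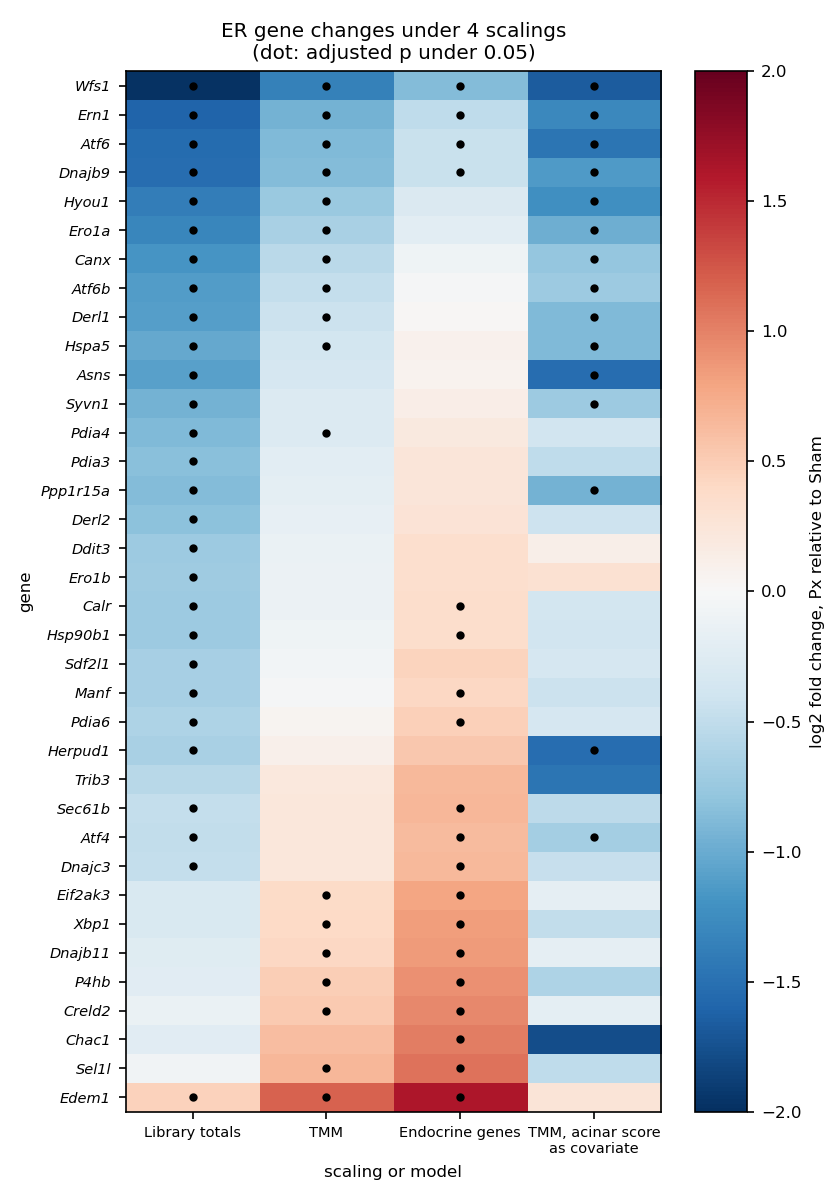
Log2 fold change of each tested ER gene in Px relative to Sham under 4 scalings or models, as colour, ordered by the TMM value. A dot marks an adjusted p under 0.05; Wfs1, Ern1, Atf6 and Dnajb9 carry 4 dots, and the column with the acinar covariate has no dot on a red cell.

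Among the 10 Px libraries alone, 14 members rose with the acinar score and 0 fell. The score is the mean log2 CPM of the 22 acinar markers, which include no member, and ran from 11.2 to 13.1 in Px. The share of 38.9% compares with 5.98% of all 15297 genes rising and 4.26% falling. At an unadjusted 0.05 edgeR had 1 member falling, Ddit3, and DESeq2 and limma voom called 0. Slopes, in log2 per unit of score, were largest for Chac1 (1.13 ± 0.21), Trib3 (0.83 ± 0.18), Herpud1 (0.72 ± 0.08) and Asns (0.64 ± 0.07), with edgeR adjusted p = 0.00904, 0.0152, 0.00025 and 0.000299. Without library 16 the slopes of Chac1 and Trib3 were 0.77 and 0.58.

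P4hb followed with 0.50 ± 0.06 per unit (edgeR adjusted p = 0.00033), and Sel1l, Atf4, Xbp1, Edem1, Sec61b, Dnajc3, Creld2, Derl1 and Atf6 made up the rest. Calls on 6 of the 14 slopes were lost without some 1 library: Atf6 and Creld2 in 8 of 10 cases each, Sec61b in 6, Derl1 and Edem1 in 3 each and Trib3 in 1 (lower-glucose Px 4). Without lower-glucose Px 4 there were 8 calls, and without higher-glucose Px 13 there were 9. By arm, 4 of 7 PERK-ATF4 genes, 5 of 9 IRE1-XBP1 genes, 3 of 11 ATF6 targets and 1 of 4 sensors were called. Of the 7 members higher in Px than Sham 5 were among the 14, and of the 11 lower members 2 were, Atf6 and Derl1. With library totals as the scale 1 member rose and 26 fell with the score. Of all 15297 genes, 128 rose and 13029 fell in that fit, and their median moved to -0.58. Whether acinar RNA or a change within islet cells underlies these slopes was not tested.

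**Figure D4:**
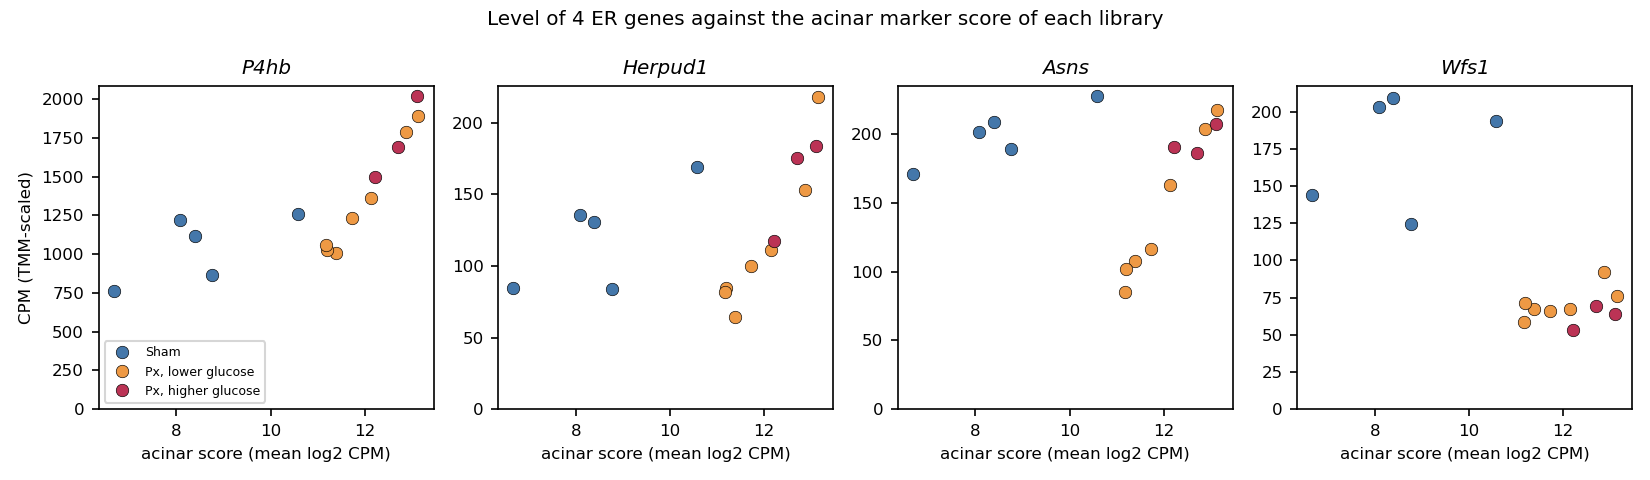
Level in CPM of P4hb, Herpud1, Asns and Wfs1 against the acinar score (mean log2 CPM of 22 markers) in each library. Among Px libraries the first 3 genes rise with the score, while Wfs1 stays at 53.2 to 92.3 CPM; the Sham libraries lie at lower scores.

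Lower-glucose and higher-glucose Px libraries were each compared with the same Sham libraries. Lower-glucose Px had 4 members higher and 13 lower (all genes 33.6% and 30%), and higher-glucose Px had 8 higher and 10 lower (all genes 32.2% and 25.5%). Wfs1 had log2 fold changes of -1.30 and -1.49 in the respective comparisons, and Edem1 of 1.03 and 1.48. Atf4 was called higher only in higher-glucose Px (0.53 ± 0.17, edgeR adjusted p = 0.0171, against 0.07 ± 0.14), as were Dnajb11, Dnajc3 and P4hb. Ero1b was called lower only there (-0.55 ± 0.16). Of these genes, Atf4, Dnajc3 and P4hb also rose with the acinar score among Px libraries (slopes 0.46, 0.34 and 0.50). Dnajb11 and Ero1b had no called slope. The calls of Atf4, Dnajc3 and P4hb were thus not separated from that score. Asns (-0.49 ± 0.20), Hspa5, Syvn1 and Derl1 were called lower only in lower-glucose Px. A call in 1 comparison alone is no test between the Px groups.

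The direct test between the Px groups called 1 member, Ero1b, lower with higher glucose, and 0 higher (all genes 1.59% and 3.29%). At an unadjusted 0.05 edgeR had 2 lower and 5 higher. DESeq2 and limma voom called 1 and 0 members higher (685 and 457 of all 15661 genes). Ero1b measured 739, 660 and 764 CPM in the 3 higher-glucose libraries and 773, 1108 and 1339 CPM (lowest, median, highest) in the 7 lower-glucose libraries. The groups did not overlap, but the gap to lower-glucose library 8 was small. Sham libraries were at 933 to 1144 CPM. The log2 fold change was -0.59 ± 0.16 (edgeR adjusted p = 0.043). Leaving out 1 library at a time ended the call in 10 of 15 cases (Sham 24 and 27, lower-glucose Px 2, 4, 10, 11 and 16, and each higher-glucose Px), with adjusted p from 0.0123 to 0.167 and log2 fold changes from -0.65 to -0.53.

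Ero1a, Dnajb11 and Atf4 did not pass between the Px groups, at 0.37 ± 0.12, 0.42 ± 0.14 and 0.46 ± 0.16 on the log2 scale (edgeR adjusted p = 0.0849, 0.0977 and 0.116). Ero1a was at 58.9 to 72.2 CPM in the higher-glucose libraries and 46.5 to 58.1 CPM in the lower-glucose ones, without overlap. Canx, higher, and Sdf2l1, lower with higher glucose, did not overlap either and were not called. The share of all genes without overlap between the Px groups was not counted. Acinar scores were 12.2 to 13.1 in the higher-glucose libraries and 11.2 to 13.1 in the lower-glucose ones, and their part in these differences was not tested beyond the covariate fit, in which Ero1b was at -0.55 (edgeR adjusted p = 0.0559). Other marker sums also differed between the Px groups. The fibroblast sum was 1911 to 3082 CPM in the higher-glucose libraries and 3998 to 8459 CPM in the lower-glucose ones, and the duct sum 209 to 257 and 327 to 417 CPM, both without overlap. The part of these in the differences of Ero1b, Ero1a and the genes named below was not tested. Within the 7 lower-glucose libraries 0 members changed with log2 glucose by edgeR (all genes 0%), and 0 and 1 passed an unadjusted 0.05 as higher and lower. DESeq2 and limma voom also called 0 members. On simulated data this fit recovered 7% of slopes of 1 and 66% of slopes of 2, so slopes of such size could be missed.

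**Figure D5:**
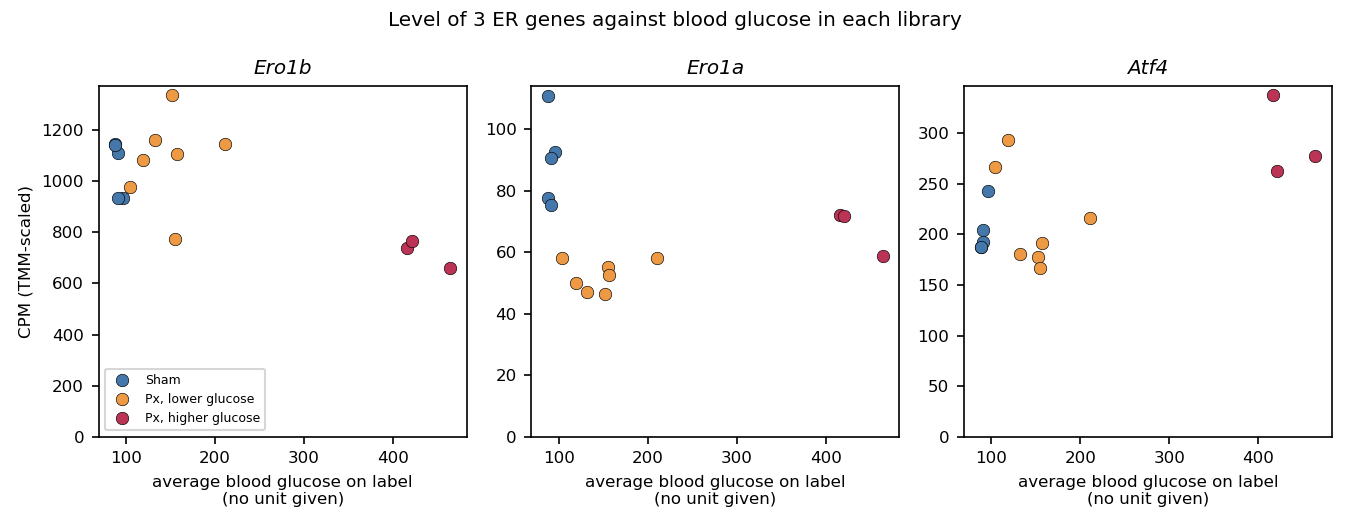
Level in CPM of Ero1b, Ero1a and Atf4 against the blood glucose on each label (no unit given), 1 point per library. Ero1b is at 660 to 764 CPM in the 3 higher-glucose libraries and at 773 or more in all others.

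Of the further pathway genes that were listed, 139 were tested, and 33 were higher and 47 lower in Px. The rest of the listed genes were absent from the count table or too low to test. The share of lower calls was near the 30.2% of all genes, and that of higher calls was under their 34.5%. ER-to-Golgi transport had 2 higher and 11 lower of 19, with a median log2 fold change of -0.37; Kdelr3, a KDEL receptor, rose by 2.18 ± 0.18 and Sec24d, a coat protein, fell by 0.82. N-glycosylation had 1 higher (Dad1, 0.54 ± 0.13, or -0.11 with library totals) and 6 lower of 11, including Uggt1, the folding sensor of glycoproteins, at -0.94 ± 0.11. Other degradation genes had 2 higher and 7 lower of 17. Mbtps1, the Golgi protease that cuts ATF6, fell by 0.66 ± 0.07 (edgeR adjusted p = 5.6e-07).

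The ATF4 and amino acid response list had 10 higher and 5 lower of 28, a share of higher calls near the 34.5% of all genes, with Atf3 (3.60 ± 0.34) and Eif4ebp1 (2.20 ± 0.27) higher and Vldlr (-0.97) and Sesn2 (-0.99) lower. In this list 19 of 28 rose with the acinar score among Px libraries, against 5.98% of all genes. Other ER folding genes had 7 higher and 7 lower of 22, with Rcn1 at 2.63 ± 0.30 and Calu at 1.07 ± 0.13, both calcium-binding proteins of the secretory pathway; the fibroblast sums given above moved upward as well and their part was not tested. Genes of ER entry had 5 higher and 5 lower of 19, eIF2 kinases and factors 2 and 2 of 9, and other stress and death factors 4 and 4 of 14. Between the Px groups Srp14 (0.69 ± 0.10) and Srp9 (0.54 ± 0.08), of the signal recognition particle, and Erlec1 (0.78 ± 0.13), a lectin of the degradation pathway, were higher with higher glucose (edgeR adjusted p = 0.00062, 0.00157 and 0.0021). So was Map3k5, at 1.56 ± 0.35 (edgeR adjusted p = 0.0182). Rcn1 was lower with higher glucose, at -0.96 ± 0.26 (edgeR adjusted p = 0.0452), though higher in Px than in Sham.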

How the data were processed

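Islet RNA was sequenced in 15 libraries. The authors deposited raw read counts per gene, laid out as featureCounts writes them per the file headers. FastQC, Subread, featureCounts and limma are named in the submitters' processing notes, and their versions, the build and the strand setting were not given in the sources. The authors' comparison table was not used. Exon length (bases) in the deposited table served only for CPM per kb.

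Low genes were removed by filterByExpr with a minimum count of 10 and a minimum total of 15, and TMM gave the library scale. edgeR 4.0.16 in R 4.3.3 supplied quasi-likelihood tests, two-sided, over all genes, with Benjamini-Hochberg adjustment at 0.05. The fits were 2 groups (Px, Sham), 3 groups split by glucose, and slopes over 7 lower-glucose or 10 Px libraries. Scores are mean log2 CPM with a prior count of 2. Alternatives were DESeq2 1.42.0, limma 3.58.1 voom, other scalings, filters and covariates, and leaving out each library. All 37 members could be named, and of each further pathway list up to 2 genes in each direction, by smallest p among called genes averaging at least 5 CPM. The members and lists were chosen with earlier results of these data known. On simulated data the fit of 2 groups recovered 81% of log2 changes of 1 and 98% of changes of 2. There 100 genes of each size among 15026 changed, up and down alike, and the rest were equal between groups. In the data 34.5% and 30.2% of genes were called higher and lower, so recovery there may differ. Promoters come from RefSeq (GRCr8), where 30 members matched.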

Additional observations from a re-analysis of the deposited data

Results flagged for a closer look

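Within groups of 5 Sham or 7 lower-glucose Px libraries, 3 of 72 sets of member values had 1 library far from the others by Dixon's test, where chance gives about 1 in 20, or 3.6. Chac1 was at 43.0 CPM in lower-glucose Px library 16, against 5.07 to 8.79 CPM in the other 6. Trib3 was at 12.89 CPM in the same library, against 2.02 to 5.97 CPM. Ddit3 was at 4.887 CPM in Sham library 27, against 6.63 to 7.29 CPM in the other 4.

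Ero1b differed between the Px groups by the direct test, with a log2 fold change of -0.59 for higher against lower glucose.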

How the results depend on the processing

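No paired analysis was possible because the groups share no replicate numbers. Signs were compared where the value passed the threshold in either setting. For Px against Sham, the log2 fold change reversed with library totals for Eif2ak3 -0.3, Sec61b -0.48, Pdia6 -0.61, Sel1l -0.07, Atf4 -0.5, Creld2 -0.14, Xbp1 -0.31, P4hb -0.23, Dnajc3 -0.47, Dnajb11 -0.24, Herpud1 -0.65, Ssr2 -0.25, Aup1 -0.21, Sec13 -0.33, Eif2ak2 -0.32, Eif2s1 -0.44, Rnf139 -0.37, Dad1 -0.11, Srp19 -0.26; with endocrine scaling for Pdia4 0.19, Hspa5 0.08, Hsp90b1 0.35, Derl1 0.02, Manf 0.42, Calr 0.35, Eif2b3 0.01, Cdk5rap3 0.14, Sec63 0.02; with the acinar covariate for Eif2ak3 -0.18, Sel1l -0.51, Atf4 -0.68, Creld2 -0.19, Xbp1 -0.49, P4hb -0.62, Dnajb11 -0.18, Herpud1 -1.52, Ssr2 -0.15, Aup1 -0.01, Rnf139 -0.06; and with the macrophage covariate for Dnajb9 0.13, Tmx4 0.52, Rnf139 -0.02, Faf2 0.09, Tmx3 0.21, Bak1 -1.4, Sec63 0.43. Between the Px groups it reversed with library totals for Sdf4 -0.03, Sar1b -0.04, Tusc3 -0.08 and with endocrine scaling for Calr -0.43, Tusc3 -0.05. Slopes on the acinar score reversed with library totals for Edem1 -0.14, Sec61b -0.14, Derl1 -0.33, Atf4 -0.11, Creld2 -0.33, Xbp1 -0.12, Atf6 -0.34, P4hb -0.07, Dnajc3 -0.23. The cause was not tested. The macrophage and acinar scores did not overlap between Sham and Px, so fits with them cannot separate either score from surgery. Members called higher and lower in Px were 1 and 27 with library totals, 15 and 4 with endocrine scaling, and 0 and 0 with the macrophage covariate. With the acinar covariate 0 were higher. Of all 15199 genes, 2667 and 7950, 7436 and 998, 0 and 0, and 3285 higher were called in the same order. For lower-glucose Px against Sham the member counts were 1 and 25, 20 and 4, 0 and 0, and 0 higher. Of all 15661 genes, 3089 and 7134, 9033 and 870, 0 and 0, and 3458 higher were called there. For higher-glucose Px against Sham the member counts were 0 and 28 with library totals and 0 and 0 with the macrophage covariate. Endocrine scaling gave 6 lower members and the acinar covariate 0 higher. Of all 15661 genes, 1865 and 9074, 2 and 2, 2275 lower and 2345 higher were called in that order. Between the Px groups DESeq2 called 1 member higher, endocrine scaling 8 lower, and library totals, no filter and the acinar covariate 0 lower. Over all genes DESeq2 called 685 higher, endocrine scaling 4510 lower, and the remaining settings 96, 197 and 115 lower in that order. Slopes on the acinar score had 1 higher and 26 lower with library totals and 3 higher with endocrine scaling. Of all 15297 genes, 128 were higher and 13029 lower with library totals, and 184 higher with endocrine scaling. Of the further pathway genes in Px against Sham, 12 and 95 were called with library totals and 74 and 5 with endocrine scaling. The macrophage covariate gave 0 and 0 and the acinar covariate 9 higher. Counts over all genes for that comparison are given above. Leaving out 1 library gave 4 to 7 higher and 9 to 13 lower members in Px against Sham (4 without Sham 23), 2 to 6 and 9 to 14 for lower-glucose Px (2 without Sham 23 or 24 or lower-glucose Px 11, 14 or 16), 3 to 10 and 7 to 11 for higher-glucose Px (3 without higher-glucose Px 13), 0 to 3 and 0 to 1 between the Px groups (3 without lower-glucose Px 16), and 8 to 16 rising slopes on the acinar score (8 without lower-glucose Px 4, 9 without higher-glucose Px 13). It gave 28 to 36 and 43 to 50 further pathway genes.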
